A study of Mus musculus with 2 samples.

Results

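The cell cycle and DNA replication genes described here are 40 genes taken by symbol from a list. All 40 matched a gene among the 55536 annotated genes of the tables and belong to the 22015 nuclear protein-coding genes. They divide by role into 5 genes that control entry into the cycle from G1, 15 genes of DNA replication and 20 genes of mitosis. A cell that commits to division makes D-type and E-type cyclins, which with their kinases switch off the retinoblastoma protein and free the E2F factors that transcribe the replication genes. Origins are then licensed by loading the MCM helicase, DNA is copied around the sliding clamp PCNA, and later the B-type cyclins, the mitotic kinases and the spindle and kinetochore genes are transcribed in a later programme. In the young hippocampus these transcripts are known from neural precursors of the dentate gyrus and from dividing glial precursors, while mature neurons have left the cycle.

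Total RNA came from hippocampal tissue of female B6CASTF1/J mice, first-generation hybrids of C57BL/6J and CAST/EiJ parentage, at 10 days of age. Both libraries belong to a single group and are labelled as biological replicates 1 and 2, each from 300 ng of RNA of a pool of 3 females, with ribosomal RNA reduced and synthetic ERCC spike-in RNAs present. The labels call the tissue a layer of hippocampus and do not say which layer. No treatment, genotype or age differed, so the genes were described within the tissue and replicate 1 was set over replicate 2. Levels are in TPM, in which counts are divided by transcript length and scaled to the same total in each library, from the gene table estimated from alignments. They are printed as replicate 1 and then replicate 2, or as mean ± SD (n = 2).

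Replicate 1 held 29858328 expected counts and replicate 2 held 32275110, of which spike-ins took 0.341% and 0.393%. The 50 cell type markers examined were at a TPM of 1 or more in both libraries, except the progenitor factor Neurog2 at 1.05 and 0.89. Neuronal and astrocyte markers stood highest, with summed levels of 2380 and 2884 TPM for 6 mature neuron genes. Among these marker lists the libraries differed most in myelin genes, whose 6 markers summed to 194 TPM in replicate 1, against 570 TPM in replicate 2. In bulk tissue of this kind, fewer cells of a type and less RNA per cell cannot be told apart.

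The 40 genes were low but measurable. Their median level was 3.11 ± 0.63 TPM, their summed level was 270 TPM in replicate 1 and 263 TPM in replicate 2, and this was 0.0598% and 0.0590% of the TPM of nuclear protein-coding genes. The median of all nuclear protein-coding genes was 3.95 and 3.57 TPM, zeros included. A TPM of 1 in both libraries was reached by 37 of the 40 genes and a TPM of 5 by 7, and the 3 below were Cdc6, Bub1 and Ccnb2. By role, the median level was 4.33 ± 0.35 TPM for G1 control, 4.20 ± 0.03 TPM for replication and 2.08 ± 0.60 TPM for mitosis. When the genes were ordered by mean level, the ranges of 34 of the 39 neighbouring pairs overlapped. The 5 steps without overlap were the first 4, from Ccnd2 through Pcna, Ccnd1 and Mcm7 down to Mcm6, and the step from Ccne2 down to Cdc6.

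**Figure D1:**
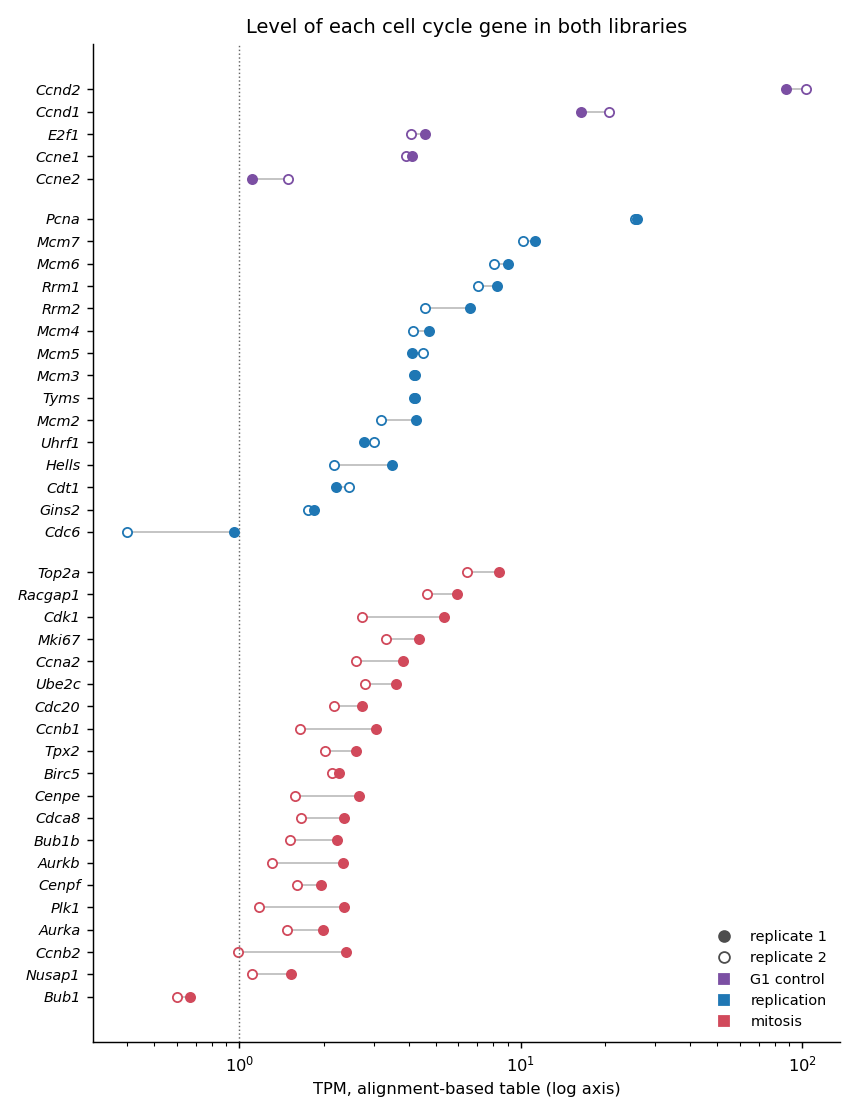
TPM of each of the 40 genes on a log axis, by role and sorted by mean level, with replicate 1 as filled and replicate 2 as open circles and the dotted line at a TPM of 1. Ccnd2 lies far to the right at 87.6 and 104 TPM. Among the mitosis genes every filled circle lies to the right of its open one, though Bub1 and Cdc20 had fewer counts in replicate 1.

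Ccnd2 stood far above every other gene of the list. This D-type cyclin, which with Cdk4 or Cdk6 starts the G1 phase and is known to be needed for new granule neurons in mice (ENSMUSG00000000184.12, mm10 chromosome 6, 127125162 to 127152193, minus strand), had 87.6 and 104 TPM. It exceeded 95.9% of nuclear protein-coding genes and held 32.5% and 39.4% of the summed TPM of the 40. Its relative Ccnd1 (chromosome 7, 144929931 to 144939925, minus strand) had 16.3 and 20.6 TPM, above 73.8% of protein-coding genes. Within each library Ccnd2 exceeded Ccnd1 by 2.37 ± 0.07 on the log2 scale of TPM + 0.1, a 5.17-fold difference. It exceeded Ccnd3, the remaining D-type cyclin, by 2.49 ± 0.22, and both gaps were larger than the spread between libraries.

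The remaining G1 genes were in the low single digits. E2f1, an activating E2F factor, had 4.58 and 4.08 TPM. Cyclin E1, Ccne1, which drives Cdk2 at the start of replication, had 4.11 and 3.91 TPM, and its relative Ccne2 had 1.11 and 1.49 TPM. Ccne2 was below Ccne1 in both libraries, with a log2 ratio of −1.57 ± 0.33. Ccne2 overlaps Ints8 on the opposite strand and Ccnd1 overlaps LTO1, and as no statement on strand-aware counting is given in the sources used here, levels of such overlapping genes are uncertain.

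The level of Ccnd2 rested on transcripts of very different length. Its full-length transcript Ccnd2-201, 6330 bases long, took 5500 of 6162 counts in replicate 1 and 5909 of 6921 in replicate 2, and 42.7 and 41.8 TPM. The 627-base transcript Ccnd2-206 took only 345 and 478 counts but 31.6 and 39.97 TPM, as TPM divides by length. The TPM of the full-length transcript differed little between the libraries, and the higher gene TPM of replicate 2 lay on the short transcripts Ccnd2-206 and Ccnd2-204, of which Ccnd2-204 had 9.10 and 18.9 TPM.

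Replication genes formed the next tier, led by the sliding clamp. Pcna, the ring that tethers DNA polymerases (chromosome 2, 132249162 to 132253314, minus strand), had 25.9 and 25.5 TPM, above 80.2% of protein-coding genes. It has 2 named pseudogenes, of which Pcna-ps2 held 30.0 and 20.9 counts beside 727 and 801 for the gene itself. Mki67, the source of the Ki-67 proliferation antigen, was lower than Pcna by a log2 ratio of −2.73 ± 0.25.

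The 6 genes of the MCM helicase, whose products form a single ring with a copy of each, divided by gene TPM into a high pair and a low group of 4. Mcm7 had 11.2 and 10.2 TPM and Mcm6 had 9.0 and 8.04 TPM. Mcm4 had 4.72 and 4.13 TPM, Mcm5 had 4.11 and 4.51, Mcm3 had 4.18 and 4.22, and Mcm2 had 4.23 and 3.20. Mcm6 and Mcm7 were above all of these in both libraries, while the ranges of Mcm3, Mcm4 and Mcm5 overlapped. Mcm7 overlaps Cops6 and Ap4m1 on the opposite strand, which had 1276 and 1332 counts and 527 and 526 counts, so its level is uncertain. Part of the TPM of Mcm7 also lay on short transcripts. Its 2962-base coding transcript Mcm7-201 held most of the counts, 321 and 348, but 5.43 and 5.36 TPM. Retained-intron transcripts took 31.0% and 21.4% of the TPM of Mcm7.

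Loading factors of the helicase were lower. Cdt1, which brings MCM to origins, had 2.21 and 2.45 TPM. Cdc6, its partner in loading, had 0.96 and 0.40 TPM from 48 and 31 counts, the second lowest mean level of the 40. Cdt1 exceeded Gmnn, the inhibitor geminin that binds Cdt1, by 0.77 ± 0.23 on the log2 scale, but by only 0.24 ± 0.03 in the read-based table. There the retained-intron transcript Cdt1-205 took 63.8% and 41.9% of the TPM of Cdt1. Gins2, a subunit of the GINS complex of the moving helicase, overlaps Gse1, of 2734 and 3333 counts, on the opposite strand. The level of Gins2, 1.85 and 1.76 TPM, is therefore uncertain. In the alignment-based table most of that TPM lay on a 511-base retained-intron transcript, Gins2-204, at 80.5% and 57.1%, against 30.5% and 42.8% in the read-based table, although the coding transcript Gins2-201 held 28.4 and 30.2 of the 41 and 43 counts.

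Both subunits of ribonucleotide reductase were above most of the replication list. Rrm1, the large subunit of this enzyme of nucleotide supply, had 8.25 and 7.07 TPM and Rrm2, the small subunit made in S phase, had 6.59 and 4.57. Rrm1 exceeded Rrm2 in both libraries, by 0.47 ± 0.21. The p53-inducible small subunit Rrm2b, used outside S phase, was above Rrm2 in both, but the log2 ratio of −0.68 ± 0.37 was within 2 SD. Tyms, thymidylate synthase, had 4.17 and 4.22 TPM. Of the chromatin genes that follow the fork, Hells, a remodeller needed for DNA methylation, had 3.48 and 2.18 TPM, and Uhrf1, which brings Dnmt1 to newly copied DNA, had 2.77 and 3.00. Uhrf1 was below Dnmt1, the maintenance methyltransferase, by a log2 ratio of −2.77 ± 0.31, which is 6.84-fold.

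Mitosis genes were the lowest of the 3 roles. Top2a, the topoisomerase that untangles chromosomes before they separate (chromosome 11, 98992943 to 99024189, minus strand), led them at 8.35 and 6.45 TPM. Its relative Top2b was higher by 8.64-fold, with a log2 ratio of Top2a over Top2b of −3.11 ± 0.08. Racgap1, a component of the spindle midzone complex that positions the cleavage furrow, had 5.96 and 4.66 TPM. Mki67 (chromosome 7, 135689784 to 135716361, minus strand) had 4.34 and 3.32 TPM.

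Cdk1, the kinase that drives entry into mitosis, had 5.32 and 2.72 TPM. It was below Cdk4 by a log2 ratio of −4.28 ± 0.61, a 19.4-fold difference, and below Cdk5, a kinase of postmitotic neurons, by −3.90 ± 0.67. Its partner cyclins were Ccna2 at 3.83 and 2.60 TPM, Ccnb1 at 3.06 and 1.65 and Ccnb2 at 2.40 and 0.99. Ccnb2 was below Ccnb1 in both libraries, with a log2 ratio of −0.51 ± 0.24, but not beyond 2 SD in the read-based table, at −0.25 ± 0.14. Ccnb1 and Ccnb2 each have a named pseudogene, with at most 3 counts in a library.

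Kinases and checkpoint genes had between 0.60 and 2.35 TPM. Plk1, the polo kinase of mitotic entry and spindle assembly, had 2.35 and 1.18 TPM. Aurka, which acts at spindle poles, had 1.99 and 1.48 TPM and Aurkb, the kinase of the chromosomal passenger complex, had 2.33 and 1.31, with neither above the other in both libraries. Bub1b, the checkpoint protein BubR1, had 2.23 and 1.51 TPM. Bub1, its checkpoint relative, had the lowest mean level of the 40, at 0.67 and 0.60 TPM, though Cdc6 was lower in replicate 2. The log2 ratio of Bub1 to Bub1b was −1.40 ± 0.28.

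Kinetochore, spindle and exit genes had between 1.11 and 3.62 TPM. The kinetochore motor Cenpe had 2.66 and 1.58 TPM and the large kinetochore protein Cenpf had 1.96 and 1.61. Birc5, or survivin, and Cdca8, or borealin, are passenger complex subunits and had 2.26 and 2.13 TPM and 2.36 and 1.66 TPM. Tpx2, which activates Aurora A on the spindle, had 2.60 and 2.01 TPM, and the microtubule binder Nusap1 had 1.53 and 1.11. Of the genes that end mitosis through the anaphase-promoting complex, Cdc20, its activator, had 2.74 and 2.18 TPM and Ube2c, its ubiquitin-conjugating enzyme, had 3.62 and 2.80. In each of these genes replicate 1 had the higher TPM, although Cdc20 had slightly fewer counts there. The coding transcript Cdc20-201 had 1.94 and 2.05 TPM. The higher gene TPM of Cdc20 in replicate 1 lay on the 526-base retained-intron transcript Cdc20-202, at 0.80 and 0.13 TPM.

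**Figure D2:**
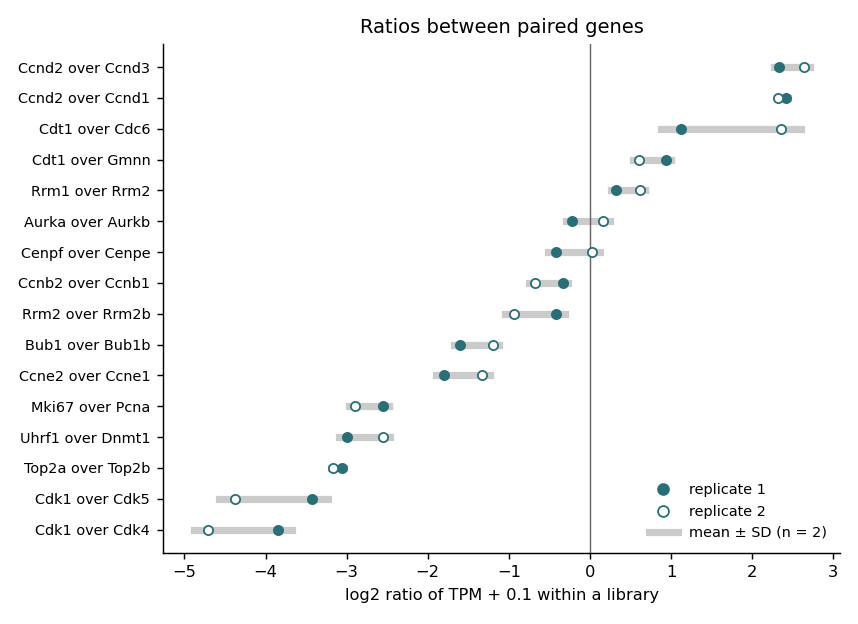
Log2 ratio of TPM + 0.1 within a library for 16 gene pairs, with replicate 1 as filled and replicate 2 as open circles and the grey bars as mean ± SD. In 13 of the 16 pairs both circles lie on one side of 0 and the mean is beyond 2 SD, and the others were Aurka over Aurkb, Cenpf over Cenpe and Rrm2 over Rrm2b.

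An exact two-sided sign test on 2 libraries cannot go below a p of 0.5, so the pairs carry no p-value. Of the 13 that passed, 5 had the first gene higher and 8 the second. Cdt1 over Cdc6, at 1.74 ± 0.87, passed by the smallest margin and did not pass in the read-based table, at 1.35 ± 0.70.

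Promoters of the 2 later roles differed in the short elements they carry. RefSeq promoter windows on GRCm38.p6, 250 bases before to 50 bases after a gene's start, were at hand for 32 of the 40 genes, 17 of them mitosis, 13 replication and 2 G1 control genes. Searched on both strands, with overlapping matches counted separately, were the cell cycle homology region or CHR, TTTGAA or TTCGAA, the CCAAT box, the E2F element, TTCCCGC or TTCGCGC or TTGCCGC or TTGGCGC, and TATAAA. In cultured cells the CHR is known as the contact of the DREAM and MuvB complexes, CCAAT as that of the factor NF-Y. A match here is only a run of letters in the window.

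A CHR was present in 13 of the 17 mitosis genes and in 2 of the 13 replication genes, beside 20.2% of the protein-coding genes of the table and 19.2% of all its windows. With the bases before the start alone, 7 of the 17 mitosis genes held one, beside 17.1% of all windows. An E2F element was present in 10 of the 13 replication genes and in 3 of the 17 mitosis genes, beside 13.7% of the protein-coding genes. CCAAT was present in 15 of 17 mitosis and 9 of 13 replication genes, beside 42.3%, and TATAAA in none of them, beside 14.8%. All 13 mitosis genes with a CHR also held CCAAT, beside 15 of all 17, and no share of protein-coding genes with both elements is given here. In 12 of those 13 a CHR began within 50 bases of the start, the exception being Mki67 at −98 and −116. No share of all windows with a CHR this near the start is given here to set beside it. Ccne1 and E2f1, the G1 control genes with a window, held none of the 4 elements in these letters.

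**Figure D3:**
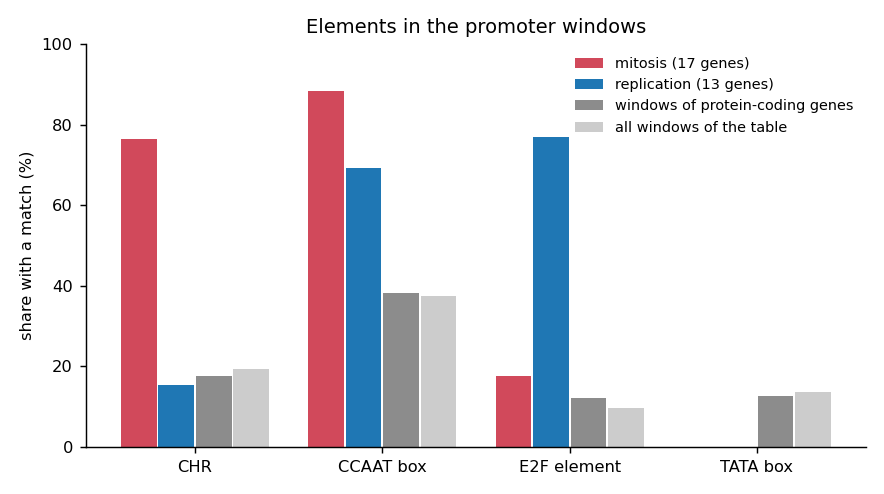
Share of genes or windows that hold each element, for 17 mitosis and 13 replication genes beside the windows of protein-coding genes and all windows of the RefSeq table. The CHR bar of the mitosis genes reaches 76.5% and the E2F bar of the replication genes 76.9%, while both are under 20% in all windows.

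The 4 mitosis windows shown here were chosen after the matches were seen, to show CHR near the start next to CCAAT boxes. They are Ccnb2, chr9:70421505-70421804 on the minus strand, Cdk1, chr10:69352863-69353162 on the minus strand, Plk1, chr7:122159185-122159484 on the plus strand, and Cdc20, chr4:118437294-118437593 on the minus strand. Capitals mark CHR and CCAAT, with CCAAT read as ATTGG where it lies on the opposite strand.
Ccnb2: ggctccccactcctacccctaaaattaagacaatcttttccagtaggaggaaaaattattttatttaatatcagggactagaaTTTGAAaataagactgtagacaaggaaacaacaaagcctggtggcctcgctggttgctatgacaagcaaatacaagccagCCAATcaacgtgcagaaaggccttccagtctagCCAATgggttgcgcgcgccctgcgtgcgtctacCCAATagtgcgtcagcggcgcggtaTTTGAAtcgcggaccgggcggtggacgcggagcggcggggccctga
Cdk1: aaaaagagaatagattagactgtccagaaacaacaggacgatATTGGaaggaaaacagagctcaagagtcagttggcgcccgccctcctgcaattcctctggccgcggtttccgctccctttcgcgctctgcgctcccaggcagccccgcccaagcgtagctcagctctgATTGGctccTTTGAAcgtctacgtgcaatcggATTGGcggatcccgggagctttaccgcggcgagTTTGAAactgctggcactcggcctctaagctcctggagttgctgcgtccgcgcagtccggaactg
Plk1: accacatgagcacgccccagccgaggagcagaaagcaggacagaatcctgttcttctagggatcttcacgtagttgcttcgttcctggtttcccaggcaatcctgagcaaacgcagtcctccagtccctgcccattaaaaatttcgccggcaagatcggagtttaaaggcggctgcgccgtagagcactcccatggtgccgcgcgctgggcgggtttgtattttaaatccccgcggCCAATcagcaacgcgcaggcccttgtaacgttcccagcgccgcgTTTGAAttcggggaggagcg
Cdc20: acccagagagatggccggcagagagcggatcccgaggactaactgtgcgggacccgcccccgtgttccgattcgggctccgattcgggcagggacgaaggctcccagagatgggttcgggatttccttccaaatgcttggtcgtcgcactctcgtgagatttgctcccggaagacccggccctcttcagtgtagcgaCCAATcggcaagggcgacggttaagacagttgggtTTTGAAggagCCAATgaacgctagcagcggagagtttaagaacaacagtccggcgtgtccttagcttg

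In Ccnb2 the CCAAT boxes begin at −87, −54 and −21, evenly 33 bases apart, and CHR matches begin at −167 and 5, counting the start base as 1. Cdk1 has CHR at −71 and −15 with CCAAT at −80 and −48, 32 bases apart, and a further CCAAT at −208. Plk1 has a single CCAAT at −14 and a CHR at 31, and Cdc20 has CCAAT at −53 and −8 with a CHR between them at −18.

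The 2 replication windows shown next carry E2F elements in place of a CHR and were likewise chosen after the matches were seen. They are Mcm5, chr8:75109259-75109558 on the plus strand, and Mcm6, chr1:128359656-128359955 on the minus strand. Capitals mark E2F elements and CCAAT, on either strand, and longer runs of capitals are overlapping E2F matches.
Mcm5: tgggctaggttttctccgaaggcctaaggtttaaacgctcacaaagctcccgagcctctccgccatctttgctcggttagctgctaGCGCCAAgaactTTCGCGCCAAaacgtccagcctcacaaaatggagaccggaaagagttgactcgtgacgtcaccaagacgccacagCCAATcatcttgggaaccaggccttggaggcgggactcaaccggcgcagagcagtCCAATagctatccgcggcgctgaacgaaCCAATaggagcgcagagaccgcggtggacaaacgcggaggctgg
Mcm6: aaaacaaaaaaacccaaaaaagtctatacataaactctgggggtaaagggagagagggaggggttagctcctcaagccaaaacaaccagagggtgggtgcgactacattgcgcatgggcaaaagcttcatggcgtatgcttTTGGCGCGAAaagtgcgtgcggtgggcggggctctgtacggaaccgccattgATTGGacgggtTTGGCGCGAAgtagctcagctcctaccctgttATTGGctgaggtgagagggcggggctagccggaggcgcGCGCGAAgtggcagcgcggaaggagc

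In Mcm6 the run TTGGCGCGAA occurs at −109 and again at −46, each holding a match on both strands, and a further match begins at 25. In Mcm5 the matches lie farther out, at −164, −152 and −149, with CCAAT at −77, −22 and 7.

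Replicate 1 was set over replicate 2 gene by gene to see whether the 40 genes varied between the pools. The exact two-sided binomial test on rounded counts, with TMM-scaled library sizes and Benjamini-Hochberg adjustment over 20544 genes, compares these 2 libraries and not conditions, and it has no replicate check. Intervals of counts and ratios cover counting error only. At an adjusted p under 0.05 and a log2 ratio of 1 or more, 1 of the 40 genes was called, Ccnb2, beside 2.85% of all genes tested in either direction and 2.25% higher in replicate 1, and 0.611% of the protein-coding genes with counts in the range of the 40. A single called gene carries no statement about the 40.

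Ccnb2 had 71 counts in replicate 1 and 32 in replicate 2, and the exact count intervals did not overlap. Its log2 ratio was 1.17, with a 95% interval of 0.56 to 1.83, and the adjusted p of the exact binomial test was 0.000741. It was called in the same direction under every other scaling, count filter and table tried.

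At an adjusted p under 0.05 with no limit on size, 12 of the 40 genes passed, beside 27.4% of all genes tested. Of these, 10 of the 40 genes were higher in replicate 1, beside 11.1% of all genes tested, and 2 were higher in replicate 2, beside 16.3%. Among the 10, 8 were mitosis genes and 2 replication genes. Both genes higher in replicate 2 were D-type cyclins.

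The mitosis genes lay mostly to the replicate 1 side. Their median log2 ratio was 0.39, and 18 of the 20 had a ratio above 0, beside 50.7% of all genes tested and 43.3% of 12599 protein-coding genes with counts in the range of the 40. Those 12599 genes had a median log2 ratio of −0.03. Summed over the 20 genes, replicate 1 had 3853 counts and replicate 2 had 2932. The 2 exceptions were Bub1, with 37 and 45 counts, and Cdc20, with 75 and 79.98, and the interval of each held 0. Scaling to total counts put Cdc20 at 0.02, and spike-in scaling put all 20 genes above 0.

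The mitosis genes with the most counts were Mki67, Top2a, Cenpf, Racgap1 and Cenpe, and 3 of these 5 passed. Mki67 had 894 counts in replicate 1 and 625 in replicate 2, a log2 ratio of 0.54 with an interval of 0.39 to 0.69 and an adjusted p of 7.63e-12 in the exact binomial test. Top2a had 562 and 426 counts, a ratio of 0.43 with an interval of 0.24 to 0.61 and an exact binomial adjusted p of 3.76e-05. Cenpe had 288 and 183 counts, a ratio of 0.68 with an interval of 0.41 to 0.96 and an exact binomial adjusted p of 5.17e-06. These 3 were higher in replicate 1 by more than counting error. Cenpf, with 359 and 322 counts and a ratio of 0.18, and Racgap1, with 289 and 244 counts and a ratio of 0.27, did not pass, at exact binomial adjusted p-values of 0.232 and 0.0945.

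Cyclin and kinase genes followed with fewer counts and wider intervals. Bub1b had 161 and 112 counts, Ccnb1 had 102 and 67.4, Cdk1 had 97 and 66, and Plk1 had 85 and 55. Their log2 ratios were 0.55, 0.63, 0.58 and 0.65, with adjusted p-values of 0.00998, 0.0237, 0.0448 and 0.0343 in the exact binomial test. Cdk1 lost the threshold with DESeq2 size factors, at an adjusted p of 0.0622, without the count filter, at 0.0623, and in the read-based table, at 0.198. The other 12 mitosis genes did not pass, among them Aurkb with 66 and 45 counts and a ratio of 0.58, and Tpx2 with 205 and 163 counts and a ratio of 0.36.

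A ratio of 1.5-fold or more towards replicate 1 was seen in 4 of the 20 mitosis genes, Ccnb2, Cenpe, Plk1 and Ccnb1. The same was true of 11.1% of all genes tested and of 1.75% of the protein-coding genes with counts in the range of the 40. None of the 20 had such a ratio towards replicate 2. In the promoter windows described above, a CHR was present in 6 of the 8 mitosis genes that passed on the adjusted p, among them Ccnb2, Cdk1 and Plk1, and in 7 of the 9 others with a window, among them Cdc20.

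**Figure D4:**
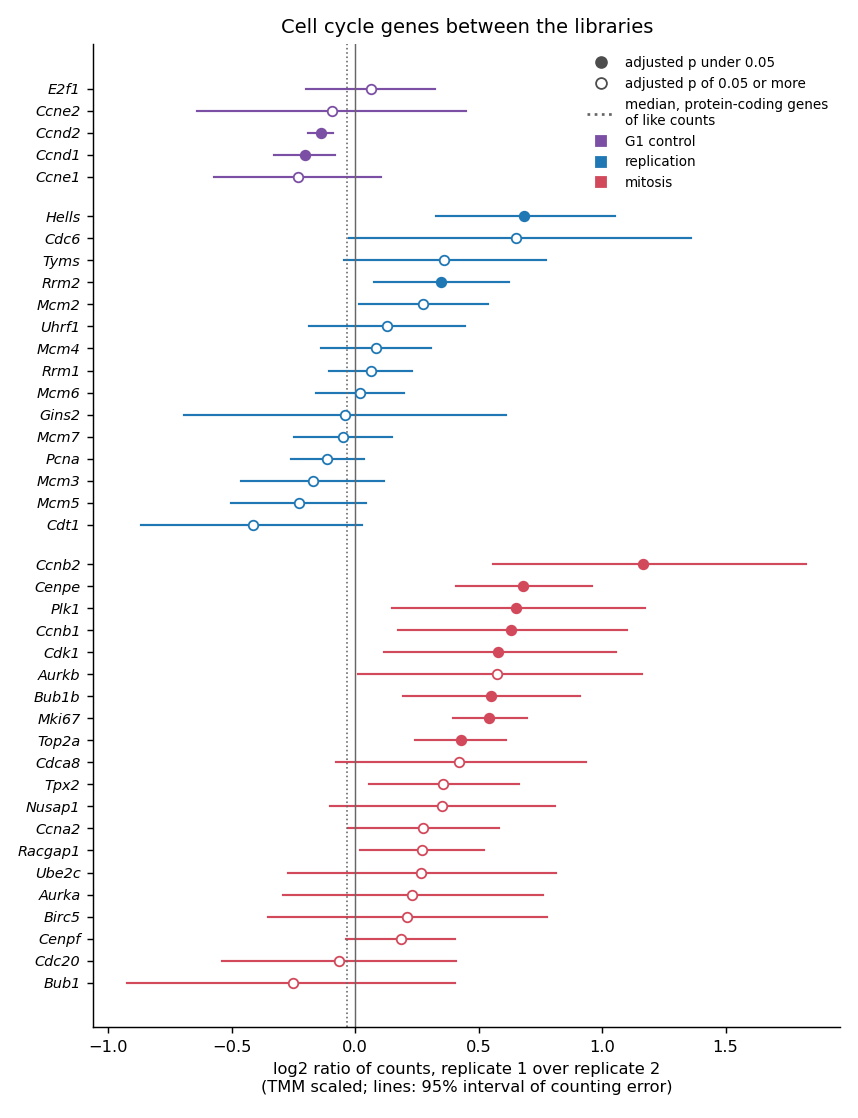
Log2 ratio of TMM-scaled counts, replicate 1 over replicate 2, for each of the 40 genes by role, with the 95% interval of counting error as a line and filled circles where the adjusted p was under 0.05. Of the 20 mitosis genes 18 lie right of 0, while the 15 replication genes are spread on both sides and 4 of the 5 G1 control genes lie left of 0, a direction that reverses in their median with spike-in scaling.

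Replication genes lay on both sides of 0. Their median log2 ratio was 0.06, and 9 of the 15 were above 0, beside 50.7% of all genes tested and 43.3% of the protein-coding genes of like counts. This number depended on the scaling, with 8 above 0 with DESeq2 size factors, 11 with total counts and 14 with spike-in scaling. The 6 MCM genes summed to 1931 counts in replicate 1 and 1968 in replicate 2, with 3 of 6 ratios above 0 and a range of −0.23 for Mcm5 to 0.28 for Mcm2, and none passed. Pcna had 727 and 801 counts and a ratio of −0.11, with an interval of −0.26 to 0.03.

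Hells and Rrm2 were the replication genes that passed. Hells had 169 counts in replicate 1 and 107 in replicate 2, a log2 ratio of 0.68 with an interval of 0.33 to 1.05 and an adjusted p of 0.000798 in the exact binomial test. Rrm2 had 251 and 201 counts, a ratio of 0.35 with an interval of 0.07 to 0.62 and an exact binomial adjusted p of 0.0419, which was 0.0689 with DESeq2 size factors. Cdc6, with 48 and 31 counts and a ratio of 0.65, and Cdt1, with 75 and 102 and a ratio of −0.41, pointed opposite ways and did not pass, and each interval held 0.

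The G1 cyclins lay slightly on the replicate 2 side. Ccnd1 had 973 counts in replicate 1 and 1143 in replicate 2, a log2 ratio of −0.20 with an interval of −0.33 to −0.08 and an adjusted p of 0.00651 in the exact binomial test. Ccnd2 had 6162 and 6921 counts, a ratio of −0.14 with an interval of −0.19 to −0.09 and an exact binomial adjusted p of 3.99e-07. Both calls depended on the scaling. Scaled to total counts, neither passed, at exact binomial adjusted p-values of 0.148 for Ccnd1 and 0.0847 for Ccnd2. With spike-in scaling, which set the median of all genes at 0.29 in place of 0.00, Ccnd1 had a ratio of 0.085 and did not pass, and Ccnd2 had a ratio of 0.15 and passed towards replicate 1. Set against the median of protein-coding genes of like counts, a difference that scaling cannot alter, the medians were −0.11 for G1 control, 0.10 for replication and 0.42 for mitosis.

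Genes of the same pathway outside the 40 were examined from lists by role. Of 44 other mitosis genes, 39 had a log2 ratio above 0 and the median was 0.28. At an adjusted p under 0.05 in the exact binomial test, 3 of the 44 were higher in replicate 1 and 0 in replicate 2, beside 11.1% and 16.3% of all genes. The 3 were Knl1, a kinetochore scaffold, with 153 and 96 counts, Hmmr, a spindle protein, with 96 and 63, and Smc4, a condensin subunit, with 419 and 335. Bub3, a checkpoint partner of Bub1 also used in other processes, was the highest of the 44 at 24.97 and 24.8 TPM, and Ska1 the lowest at 0.16 and 0.23 TPM.

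Of 38 other replication genes, 25 had a ratio above 0 and the median was 0.12. At an adjusted p under 0.05 in the exact binomial test, 5 were higher in replicate 1, beside 11.1% of all genes, and 1 in replicate 2, beside 16.3%. The 5 were Orc5, Cdc7, Lig1, Tk1 and Atad2, and the gene higher in replicate 2 was Rpa1, the large subunit of the single-strand binding complex, with 1245 and 1487 counts. Cdc7, the kinase that fires origins, had 340 and 267 counts, and Lig1, the ligase of Okazaki fragments, had 331 and 246. The origin recognition genes Orc4 and Orc3 were among the highest, at 27.2 and 23.9 TPM and 27.1 and 23.2 TPM, and Orc1 was the lowest at 0.44 and 0.22.

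Transcription factors of the mitotic programme were few in counts. Foxm1, an activator of mitosis genes, had 187 counts in replicate 1 and 130 in replicate 2, a log2 ratio of 0.55 and an adjusted p of 0.00429 in the exact binomial test. Mybl2, or B-Myb, had 62 and 47.7 counts, a ratio of 0.39 and an interval that held 0. The repressor E2f7 passed with 71 and 42 counts, and E2f3 and Tfdp2 passed towards replicate 2. Over all 17 factors and pocket proteins the median ratio was 0.06, with 2 passing towards each library, beside 11.1% of all genes towards replicate 1 and 16.3% towards replicate 2. Tfdp1, the partner of E2F factors, at 32.9 and 31.4 TPM and the retinoblastoma gene Rb1 at 21.8 and 19.9 TPM were the highest.

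Genes that hold the cycle were at higher levels than most of the 40. Of 12 inhibitors and exit genes, Fzr1, the activator of the anaphase-promoting complex in G1, had 35.6 and 32.5 TPM, Cdkn2d 29.2 and 34.7, and Cdkn1b, the inhibitor p27, 23.7 and 23.1. Their median level was 8.06 and 8.02 TPM, and 0 of the 12 passed in either direction. Cdkn2a was at 0.37 and 0.28 TPM. Among 12 other kinases, cyclins and switches, Cdk4 had 77.9 and 73.6 TPM and Cdk5 58.2 and 58.6, and Cdk5 and Wee1, the kinase that restrains Cdk1, passed towards replicate 2 and none towards replicate 1, beside the same shares.

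**Figure D5:**
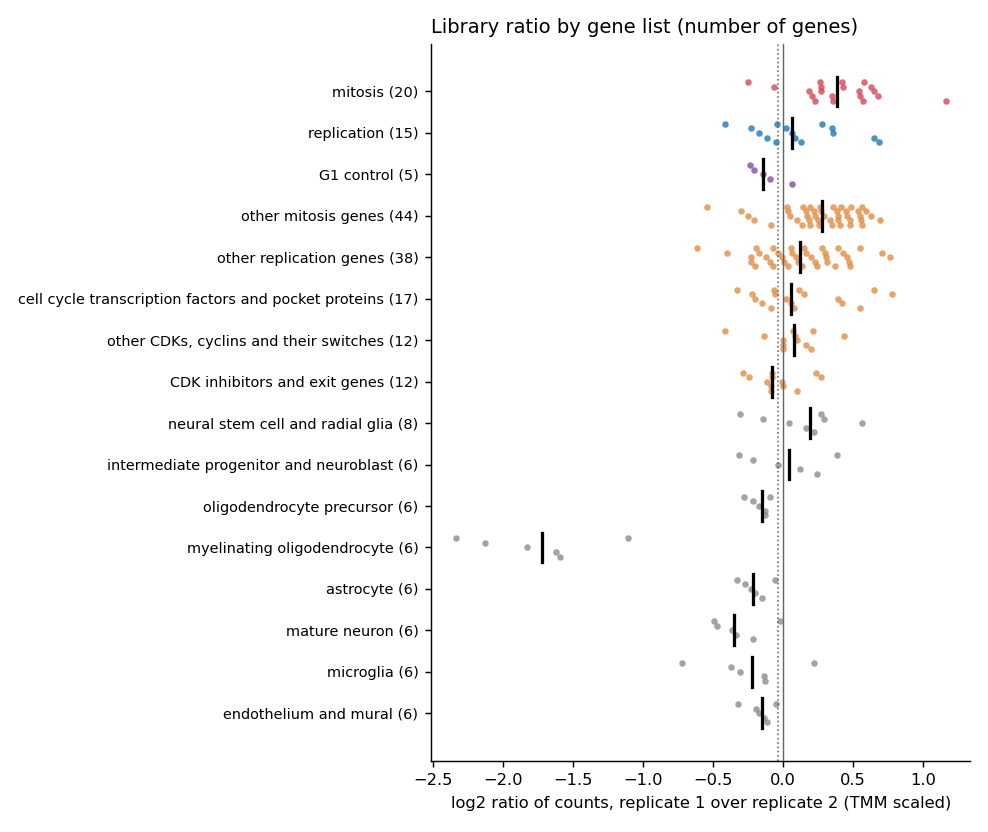
Log2 ratio of TMM-scaled counts, replicate 1 over replicate 2, for every gene of each list, with a black bar at each list's median and the dotted line at the median of protein-coding genes of like counts. The 20 mitosis genes and the 44 other mitosis genes lie mostly right of 0, while the 6 myelin markers lie between −2.34 and −1.11.

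Of the 8 cell type marker lists, the neural stem cell list leaned to replicate 1 as the mitosis genes did with TMM scaling, and 6 lists had a median ratio below 0. Spike-in scaling, which set the median of all genes at 0.29 in place of 0.00, moves all ratios up alike. Medians nearer 0 than that depend on the scaling. They were −0.15 for oligodendrocyte precursor and for endothelial and mural markers, −0.21 for astrocyte and −0.22 for microglia markers. Numbers of markers that passed are given for TMM scaling only. Of 8 neural stem cell and radial glia markers, 4 passed towards replicate 1 and 1 towards replicate 2, beside 11.1% and 16.3% of all genes tested, their median ratio was 0.19, and their summed level was 452 TPM in replicate 1 and 374 TPM in replicate 2. The 6 intermediate progenitor and neuroblast markers were split, 3 with ratios above 0 and 3 below. Dcx with 8085 and 6299 counts and Sox11 with 5064 and 4355 passed towards replicate 1, and Igfbpl1 with 1156 and 1467 passed towards replicate 2, beside the same shares of all genes, and the 6 summed to 152 and 125 TPM. All 6 oligodendrocyte precursor markers had ratios below 0, from −0.28 to −0.09, and summed to 202 and 212 TPM. The 6 myelin markers were all called lower in replicate 1, such as Mbp with 3733 and 11493 counts. At that threshold, which includes a log2 ratio of 1 or more, 0.599% of all genes tested were called higher in replicate 2. Mature neuron markers summed to 2380 and 2884 TPM and astrocyte markers to 1344 and 1503 TPM. Microglia markers summed to 89.0 and 108 TPM and endothelial and mural markers to 144 and 152 TPM. On the adjusted p, 5 of 6 mature neuron and 5 of 6 astrocyte markers passed towards replicate 2, beside 16.3% of all genes tested. So did 4 of 6 oligodendrocyte precursor, 3 of 6 microglia and 3 of 6 endothelial and mural markers. In these 5 lists 0 markers passed towards replicate 1. No marker of these lists was at 0, and the part of these differences in the mitosis genes was not tested.

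The read-based table gave higher counts for most of the 40, by a median log2 of 0.12 in replicate 1 and 0.10 in replicate 2, close to the 0.12 and 0.12 of all genes compared. Tyms differed most, with 359 and 214 counts there against 116 and 92 in the alignment-based table, and its library ratio of 0.73 there passed the exact binomial test with an adjusted p of 3.33e-08, against 0.36 and 0.202 in the alignment-based table. Rrm1 had 822 and 742 counts there against 585 and 571, of which 192 and 136 lay on the retained-intron transcript Rrm1-204. Birc5 had 103 and 94.97 against 59 and 52. In the other direction, Pcna had 667 and 730.4 against 727 and 801. Ube2c had 41.0 against 55 in replicate 2, but 66.6 against 65 in replicate 1.

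The leading transcript was the same in both libraries for 39 of the 40 genes, the exception being Hells, and the same in both tables and libraries for 31. It was a coding transcript in both libraries for 38 genes. The median share of a gene's TPM on coding transcripts was 86.0% in replicate 1 and 93.3% in replicate 2. Retained-intron transcripts took 38.2% and 33.9% of the TPM of Cdk1 and 37.1% and 23.0% of that of Ccnb1, while the read-based table placed none of the TPM of Cdk1 on them. By counts the coding share was higher, with a median of 96.3% and 98.0%. For 17 of the 40 genes another annotated gene overlaps, for 14 of them on the opposite strand, and the posterior SD of the gene count was at most 3.71% of the count, in Ccnb1. Among the 14 were Ccna2, which overlaps Exosc9, of 642 and 648 counts, and Cdca8, which overlaps 9930104L06Rik, of 522 and 432. Cdc20 overlaps Elovl1, of 179 and 198 counts, and Nusap1 overlaps Oip5, of 55 and 38. The levels and ratios of these genes are likewise uncertain.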

How the data were processed

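Each library had a gene table and 2 transcript tables, made by the authors on mouse build mm10 with annotation M21, per the labels and the readme files deposited with them. Expected counts, TPM and FPKM of the gene table were estimated from alignments to the transcriptome, per the file headers. The estimated counts and TPM of the other transcript table came from the reads and an index, per the file headers, and were summed per gene as the read-based table. The posterior SD of the count is another deposited column. The names of the programs were not given in the sources used here.

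Rounded counts of 10 or more over both libraries were compared with an exact conditional binomial test, with TMM factors from edgeR 4.0.16 in R 4.3.3, a pseudocount of 0.5 counts for ratios, and DESeq2 1.42.0 size factors as an alternative. The quasi-likelihood test cannot be fitted with 1 library on each side. Pairs used TPM + 0.1 and passed with equal signs and a mean beyond 2 SD. Intervals are at 95% confidence. Of other lists up to 4 genes with the highest TPM, those called or below a TPM of 1, and genes of the pairs could be named, and others named, such as those that passed on the adjusted p alone, were chosen after their values were seen. Scripts used pandas 2.3.3, scipy 1.17.1 and numpy 2.4.6 in Python 3.11.15 and were tested on simulated data. The genes, lists, pairs and tests were chosen with earlier results of these data known. Allele-specific values were not analysed here.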

Additional observations from a re-analysis of the deposited data

How the results depend on the processing

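The median level of the 40 genes was 5.02 TPM in the read-based table, 2.17 as FPKM and 6.92 TPM after rescaling to protein-coding genes. In the same order of settings it was 6.53, 3.02 and 9.65 for G1 control, 6.61, 2.93 and 9.37 for replication and 3.60, 1.45 and 4.63 for mitosis, so the order of mitosis below the other roles was kept. At a TPM of 5 or more, 7 genes were detected in both libraries. With spike-in scaling the calls over all genes numbered 1276 and the median log2 ratio was 0.68 for mitosis, 0.35 for replication and 0.15 for G1 control, which was the reverse of its direction. Ccnd1 at 0.085, which did not pass, and Ccnd2 at 0.15 changed sign with it, as this scaling shifts all genes alike. Scaling to total counts gave G1 control a median of −0.056. Testing genes with 50 or more counts gave 311 calls, the adjusted p alone 5637 calls with 12 of the 40 genes, and the adjusted p with 1.5-fold 1161 calls with 5 of the 40. Of the alternative values for single genes between libraries, 210 kept their side of the adjusted p threshold, 21 passed only in the alternative, 7 passed only as reported and 2 reversed. Ccnb2 over Ccnb1 and Cdt1 over Cdc6 lost their call in the read-based table and with a pseudocount of 0.01. The median log2 ratio between tables was −0.04, and 0.68 with TPM as deposited. With only the bases before the start, 7 of 17 mitosis genes held a CHR, beside 17.1% of all windows. Beside windows of protein-coding genes, an alternative chosen after seeing the data, the CHR share to compare with was 17.6%. No paired analysis was possible because the series has a single group. The leave-one-out of a library left no comparison between libraries, and genes with under 50 counts, such as Cdc6, Bub1 and Gins2, are limited by depth.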
